A study of Mus musculus with 54 samples.

Results

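Chemokine and chemokine receptor genes were followed through a cycle of mouse mammary gland development. The 39 genes were chosen by name alone, as all genes with a Ccl, Cxcl, Xcl, Cx3cl, Ccr, Cxcr, Xcr or Cx3cr symbol and number and at least 1 probe set annotated to that symbol only. They made up 39 of the 8251 genes with such a probe set and were carried by 44 probe sets. There were 24 ligand genes and 15 receptor genes. The arrays were 1-colour Affymetrix arrays, and each of the 54 held total RNA from the inguinal gland of 1 mouse, with the lymph node taken out before extraction. Glands came from 3 mice at each of 18 times: virgin mice at 6, 10 and 12 weeks of age, days 1, 2, 3, 8.5, 12.5, 14.5 and 17.5 of pregnancy, days 1, 3 and 7 of lactation, and days 1, 2, 3, 4 and 20 of involution. Mating was at 12 weeks, and involution was started by taking the pups away on lactation day 7, so all involution glands had gone through the same forced weaning. The labels name no strain, allele or agent. Within a time point the replicate letters A, B and C stand for separate mice, and the labels give no link between equal letters of different time points.

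Chemokines are small secreted proteins that guide the movement of leukocytes, and they are named by the spacing of their first cysteines. Their receptors are G protein-coupled receptors that signal through inhibitory Gi proteins, and most receptors take several ligands. In the mammary gland, macrophages and eosinophils take part in the growth of the ducts in virgin animals, and leukocytes clear dead epithelial cells and milk when the gland regresses after weaning. CC ligands such as Ccl2 attract monocytes, CXC ligands such as Cxcl1 attract neutrophils, and Cxcl12 is made by stromal cells and acts on Cxcr4.

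Levels are the deposited signals in arbitrary units, and a level is compared only with levels of the same probe set. Signals under 9.4, the 25th percentile of the whole table, were set to 9.4 (the floor) before taking log2. A mean signal of 3 mice is the mean of the floored log2 values turned back to the signal scale. A gene was tested if a probe set stood above 22.8, the 40th percentile of the table, in each of the 3 arrays at 1 or more of the time points. Probe sets above it with several symbols or none were tested as well, each on its own. They are included wherever the text speaks of all genes or of the 7311 genes tested. In whole-gland RNA, fewer cells of a type and less RNA per cell cannot be told apart. Array medians ranged from 31.8 to 44.6, and the beta-actin 3'/5' signal ratio, a measure of RNA integrity and labelling, ranged from 1.09 to 4.15. The tissue carried its defining markers: the summed signal of 7 luminal and milk genes was 1140.3 to 1241.3 at virgin week 6 and 37813.9 to 40946.3 at lactation day 7. T cell markers were also present in the glands without lymph nodes, at a summed signal of 934.9 to 1126.4 for 10 genes at virgin week 12.

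At involution day 4 against lactation day 7, 12 of the genes called higher had a matched upstream window. The sequences just upstream of 7 of these are shown. Those of Ccl3, Ccl6, Ccr2, Cx3cl1 and Cxcr4 were matched but are not shown. Windows of Ccl2, Ccl7 and Ccl11, also called higher, were not matched. Each window holds the 120 bases before the RefSeq start of the gene (build GRCm38.p6), written in the direction of transcription. Capitals mark matches to the NF-kB consensus or to TATAAA, both searched on both strands. RefSeq windows were matched for 31 of the 39 genes.
Cxcl1 (chr5:90891125-90891244, plus strand): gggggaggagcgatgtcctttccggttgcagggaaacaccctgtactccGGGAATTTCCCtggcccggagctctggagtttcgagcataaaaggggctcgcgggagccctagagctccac
Ccl9 (chr11:83578637-83578756, minus strand): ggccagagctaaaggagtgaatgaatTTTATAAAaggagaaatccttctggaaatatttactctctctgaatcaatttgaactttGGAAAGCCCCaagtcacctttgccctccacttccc
Ccr1 (chr9:123968693-123968812, minus strand): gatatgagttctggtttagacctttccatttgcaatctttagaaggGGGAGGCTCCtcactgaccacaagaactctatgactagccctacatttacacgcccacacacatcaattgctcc
Ccl8 (chr11:82115065-82115184, plus strand): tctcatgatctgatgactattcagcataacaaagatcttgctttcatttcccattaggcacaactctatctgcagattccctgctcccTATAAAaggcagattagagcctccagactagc
Cxcl12 (chr6:117168415-117168534, plus strand): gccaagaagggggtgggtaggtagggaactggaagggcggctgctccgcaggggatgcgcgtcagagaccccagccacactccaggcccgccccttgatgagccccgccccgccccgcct
Ccl12 (chr11:82101725-82101844, plus strand): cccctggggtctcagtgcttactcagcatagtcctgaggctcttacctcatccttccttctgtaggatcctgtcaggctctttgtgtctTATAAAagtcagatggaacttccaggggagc
Cxcl14 (chr13:56296552-56296671, minus strand): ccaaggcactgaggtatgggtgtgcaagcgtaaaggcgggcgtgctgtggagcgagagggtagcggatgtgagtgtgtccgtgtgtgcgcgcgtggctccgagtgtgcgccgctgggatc
A match to the NF-kB consensus began at -71 in Cxcl1, -74 in Ccr1 and -35 in Ccl9, and the pair of matches in Cxcl1 overlap on opposite strands. TATAAA began at -32 in Ccl8, -31 in Ccl12 and -92 in Ccl9. Over the 250 bases upstream, 8 of the 31 genes held the NF-kB consensus in at least 1 window (Ccl1, Ccl9, Ccr1, Ccr3, Ccr6, Cxcl1, Cxcl2 and Cxcl10). Of 32851 such windows of 27025 genes, each window counted once, 7.25% held it. TATAAA was in a window of 10 of the 31 genes, against 12.4% of all windows. A gene with several windows can be counted through any of them, so the shares of genes and of windows are unlike units. Of the 12 genes called higher at involution day 4 with a window, 3 held the NF-kB consensus and 5 held TATAAA. These are matches of letters only.

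The filter was passed by 25 of the 39 genes, 18 ligands and 7 receptors. The other 14 genes never stood above 22.8 in all 3 arrays of a time point: the ligands Ccl4, Ccl17, Ccl25, Cxcl2, Cxcl5 and Cxcl10, and the receptors Ccr1l1, Ccr3, Ccr4, Ccr6, Ccr7, Ccr8, Cxcr2 and Cxcr5. Their highest single signals lay between 13.9 (Ccr4) and 43.9 (Ccr7), and 6 of the 14 had an array above 22.8. Ccr7, which guides lymphocytes and dendritic cells to lymph nodes, came nearest, with signals of 22.9, 30.9 and 21.4 at lactation day 7. The neutrophil attractants Cxcl2 and Cxcl5 stayed dim also on the first day of involution, with signals of 1.9, 2.9 and 8.4 for Cxcl2 and 4.6, 1.8 and 2.0 for Cxcl5. Their receptor gene Cxcr2 read 1.9, 6.1 and 16.4 in the same arrays. CC receptors were the family with the most genes under the filter, with 3 of 9 passing. A low signal can come from a low RNA level or from a weak probe set, and the arrays do not separate these.

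Over all 18 time points, 22 of the 39 genes (25 tested) varied by the F test of limma at an adjusted p under 0.05. Across the array, 89.0% of the 7311 genes tested varied, so most chemokine genes varying is no mark of the family. Xcl1, Ccl6 and Cx3cr1 were tested and did not pass. The lowest mean of the 18 fell in lactation for 11 of the 25 tested genes, and for 29.6% of all genes tested. The highest mean fell in involution for 10 of the 25, and for 21.5% of all genes tested.

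**Figure D1:**
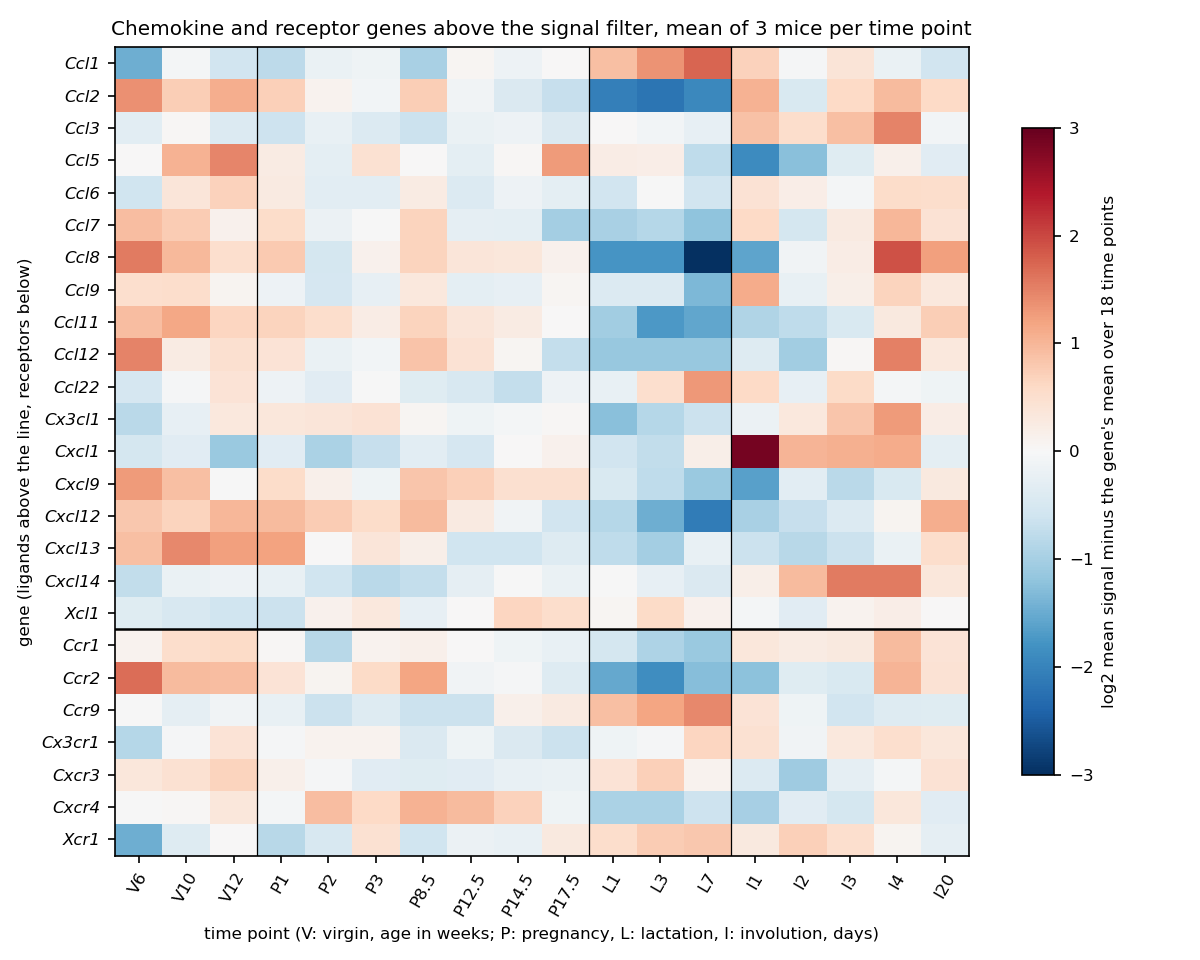
Colour gives the log2 mean signal of 3 mice at each of 18 time points (columns) minus the gene's own mean over all time points, for the 25 genes above the signal filter (rows, ligands above the black line and receptors below it). The ligands Ccl2, Ccl8, Ccl11 and Cxcl12 are blue in the 3 lactation columns, Cxcl1 is darkest at involution day 1, and Ccl1 and Ccr9 are red at lactation day 7.

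The 8 comparisons between time points share arrays: virgin week 12 enters 4 of them and lactation day 7 enters 3. Calls are given as counts of the 39 genes, of which 25 could be called, beside the share of all 7311 genes called in that direction. From virgin week 6 to week 12, 4 genes rose and 1 fell, where 17.9% of all genes rose and 13.3% fell. From virgin week 12 to pregnancy day 14.5, 2 rose and 4 fell, where 9.66% of all genes rose and 9.52% fell. At lactation day 1 against pregnancy day 17.5, 0 rose and 4 fell, with 10.2% and 14.2% of all genes. At lactation day 7 against virgin week 12, 3 genes rose and 15 fell, with 23.8% and 28.8% of all genes, and where the median log2 difference was -1.08 for the 25 tested genes and -0.05 for all genes. With Arl2bp and Glo1, genes found earlier to vary between arrays of a time point, as covariates, 6 genes were called there, and the calls of Ccl1, Ccl2, Ccl8, Ccl11, Cx3cl1 and Cxcl12 were kept.

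After weaning the direction turned. At involution day 1 against lactation day 7, 7 genes rose and 0 fell by limma, with 15.2% and 11.7% of all genes. At involution day 4 against lactation day 7, 15 rose and 3 fell, with 23.9% and 21.8% of all genes, and the median log2 difference was 1.12 for the 25 tested genes and -0.01 for all genes. Between involution days 1 and 4, 10 genes rose and 1 fell, with 13.5% and 11.6% of all genes. By involution day 20, limma called 0 of the 25 genes in either direction against virgin week 12, where 1.19% of all genes were higher and 1.4% lower. At an unadjusted p under 0.05, 2 of the 25 differed there (Ccl5 and Cxcl1), and 17.2% of all genes did. With arrays weighted by quality, 3 of the 25 were called lower at involution day 20, and without mouse A of involution day 20, 1 was called, so the count of 0 depends on those choices. In all, 24 genes were called in at least 1 comparison, and Cxcr3 was the only tested gene called in none.

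Scaling moved the split of all calls by over 10 percentage points in 3 of these comparisons. When each array was divided by its median, the share of calls that were higher went from 57.3% to 33.6% for virgin week 12 against week 6, from 50.4% to 72.1% for pregnancy day 14.5 against virgin week 12, and from 46.0% to 67.3% for involution day 20 against virgin week 12. The median of all genes moved from 0.16 to -0.04 in the first from -0.08 to 0.10 in the second and from -0.06 to 0.08 in the third. The counts of chemokine genes called after that scaling were 4, 4 and 0.

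Among the monocyte attractants of the CC family, Ccl8 had the highest fold between its highest and lowest means. Ccl8, a ligand of several CC receptors that attracts monocytes and eosinophils, had signals of 261.3, 709.7 and 460.5 in the 3 mice at virgin week 12. It read 221.9, 320.9 and 559.8 at pregnancy day 17.5 and 113.8, 84.6 and 80.4 at lactation day 1. At lactation day 7 the signals were 66.5, 18.9 and 41.3. The 3 lactation day 7 arrays lay below every virgin and pregnancy array of the gene. Ccl8 fell by 1.90 on the log2 scale from pregnancy day 17.5 to lactation day 1 (SE 0.45, adjusted p = 0.0016). Against virgin week 12, the day 7 level was 11.8-fold lower (adjusted p = 8.8e-09).

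Ccl8 then climbed back in steps. Its signals were 141.3, 47.9 and 164.7 at involution day 1, 316.6, 322.6 and 243.7 at day 2, and 551.7, 347.3 and 256.6 at day 3. At day 4 they reached 1424, 1236 and 893.3. The day 4 arrays overlapped neither those of day 1 nor those of lactation day 7, whereas mouse B of involution day 1 lay within the range of lactation day 7. The log2 difference between involution day 4 and lactation day 7 was 4.96 (SE 0.45, 31.2-fold, adjusted p = 3.7e-12), and between days 4 and 1 it was 3.49 (SE 0.45, adjusted p = 9.5e-08). The smaller rise at day 1, 1.47 (SE 0.45, adjusted p = 0.011), was no longer called without mouse B of lactation day 7 (adjusted p = 0.14) or without mouse A or C of involution day 1 (adjusted p = 0.075 and 0.088), or with the 6 arrays fitted alone (adjusted p = 0.15). At day 20 the signals of 957, 695.7 and 595.2 gave a mean of 734.5, with the virgin week 12 mean at 440.4 (adjusted p = 0.41).

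Ccl2, the main ligand of Ccr2 and the textbook attractant of inflammatory monocytes, went to the floor in lactation and back within a day of weaning. Its signals were 88.8, 79.6 and 104.4 at virgin week 12 and 23.2, 33.4 and 39.9 at pregnancy day 14.5. Across the 9 lactation arrays, 7 were at or under the floor, among them 2 of the 3 at lactation day 7 (15.4, 4.3 and 2.6). At involution day 1 it read 97.0, 87.4 and 81.1. None of these 3 arrays came near those of lactation day 7. The steps were a fall of 1.53 on the log2 scale to pregnancy day 14.5 (SE 0.33, adjusted p = 0.00092), a fall of 1.38 from pregnancy day 17.5 to lactation day 1 (SE 0.33, adjusted p = 0.002), and a rise of 2.99 at involution day 1 (SE 0.33, adjusted p = 1.8e-09). The sizes of changes from lactation levels depend on the floor, under which most of these arrays lay. With the floor raised to the 40th percentile the lactation day 1 call was lost (adjusted p = 0.61), where all 3 lactation day 1 arrays sit at that floor, and with Arl2bp and Glo1 as covariates the pregnancy call was lost (adjusted p = 0.077).

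After the first day Ccl2 read lower before it read higher again, a step that was not tested. Signals were 39.1, 30.5 and 25.1 at involution day 2 and 61.1, 107.9 and 86.9 at day 4. The day 2 arrays lay below all arrays of days 1 and 4. Against lactation day 7, the day 4 level was higher by a log2 difference of 2.91 (SE 0.33, adjusted p = 1.6e-09), whose size depends on the floor in the same way.

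Ccl7 and Ccl12, which also act on Ccr2, had their lowest means in lactation as well. Ccl7 read 16.7, 31.1 and 25 at virgin week 12, was under the floor in all 3 arrays of lactation day 7, and read 38.8, 34.2 and 25.8 at involution day 1. Its rise at involution day 1 was therefore at least 3.45-fold (adjusted p = 0.0086), and at day 4, with signals of 19.9, 77.1 and 52.2, at least 4.59-fold (adjusted p = 0.00064). The call at day 1 was lost with the higher floor (adjusted p = 0.34). Its fall from virgin week 12 to lactation day 7, at least 2.5-fold (adjusted p = 0.032), was lost on leaving out any 1 lactation day 7 array or virgin week 12 mouse B or C (adjusted p 0.062 to 0.11) and with Arl2bp and Glo1 as covariates (adjusted p = 0.48).

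Ccl12 was under the floor in all 9 lactation arrays. It read 14.8, 22.4 and 11.9 at involution day 1 and 41.8, 85.7 and 56.6 at day 4. The day 1 level, at least 1.68-fold over lactation day 7, was not called (limma adjusted p = 0.34). Day 4 stood above both earlier times without overlap, at least 6.25-fold over lactation day 7 (adjusted p = 0.00013). The step from day 1 to day 4 was a log2 difference of 1.89 (SE 0.55, adjusted p = 0.0094), and it was lost without mouse B of day 4 (adjusted p = 0.057) or mouse C of day 1 (adjusted p = 0.05). The fall from virgin week 12 to lactation day 7, at least 3.04-fold (adjusted p = 0.014), was lost without virgin mouse C (adjusted p = 0.058), with the higher floor (adjusted p = 0.24) and with Arl2bp and Glo1 as covariates (adjusted p = 0.82).

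Ccl9, a ligand of Ccr1 that attracts myeloid cells, peaked on the first day of involution. Its signals were 326.1, 282.1 and 251.2 at lactation day 7 and 1411, 1280 and 2167 a day after weaning. They were 739.7, 766.5 and 426.4 at day 2 and 1060, 1153 and 1226 at day 4. All involution arrays stood above those of lactation day 7. The log2 difference at day 1 was 2.47 (SE 0.41, 5.53-fold, adjusted p = 9.4e-06) and at day 4 it was 2.01 (SE 0.41, adjusted p = 0.0001). In lactation it had fallen by 1.44 against virgin week 12 (SE 0.41, adjusted p = 0.0033), a call that was lost with Arl2bp and Glo1 as covariates (adjusted p = 0.38). Ccl6, also a Ccr1 ligand, moved less, with signals of 35.6, 27.0 and 85.6 at lactation day 7 and 78.0, 105.0 and 102.5 at involution day 4. These overlap, and the log2 difference of 1.12 (SE 0.44, adjusted p = 0.034) was lost without lactation day 7 mouse A or B or involution day 4 mouse B or C (adjusted p 0.085 to 0.2). From virgin week 12 to lactation day 7 Ccl6 was 2.39-fold lower (adjusted p = 0.015), a call that was lost without virgin mouse B or lactation mouse A or B (adjusted p 0.055 to 0.12) and turned to a log2 difference of 1.33 with Arl2bp and Glo1 as covariates (adjusted p = 0.22).

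Ccl3, an inflammatory ligand of Ccr1, was called only at involution day 4. It read 13.1, 9.0 and 18.1 at lactation day 7 and 42.1, 39.2 and 48.2 at day 4, a log2 difference of 1.72 (SE 0.44, adjusted p = 0.0013). The groups did not overlap. Its neighbour Ccl4 stayed under the filter in every array. Ccl5, made by T cells among others, ran a different course, with 203.0, 261.6 and 161.9 at virgin week 12, 40, 34.7 and 61.8 at lactation day 7, and 50.8, 10.6 and 15.5 at involution day 1. It was 4.65-fold lower at lactation day 7 than at virgin week 12 (adjusted p = 0.0048), which was lost with Arl2bp and Glo1 as covariates (adjusted p = 0.14). From involution day 1 to day 4 it rose to 89.0, 103.1 and 63.1 (log2 difference 2.04, SE 0.66, adjusted p = 0.019). That call was lost without mouse B or C of day 1 or mouse A or B of day 4 (adjusted p 0.057 to 0.13), and with the higher floor (adjusted p = 0.085).

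**Figure D2:**
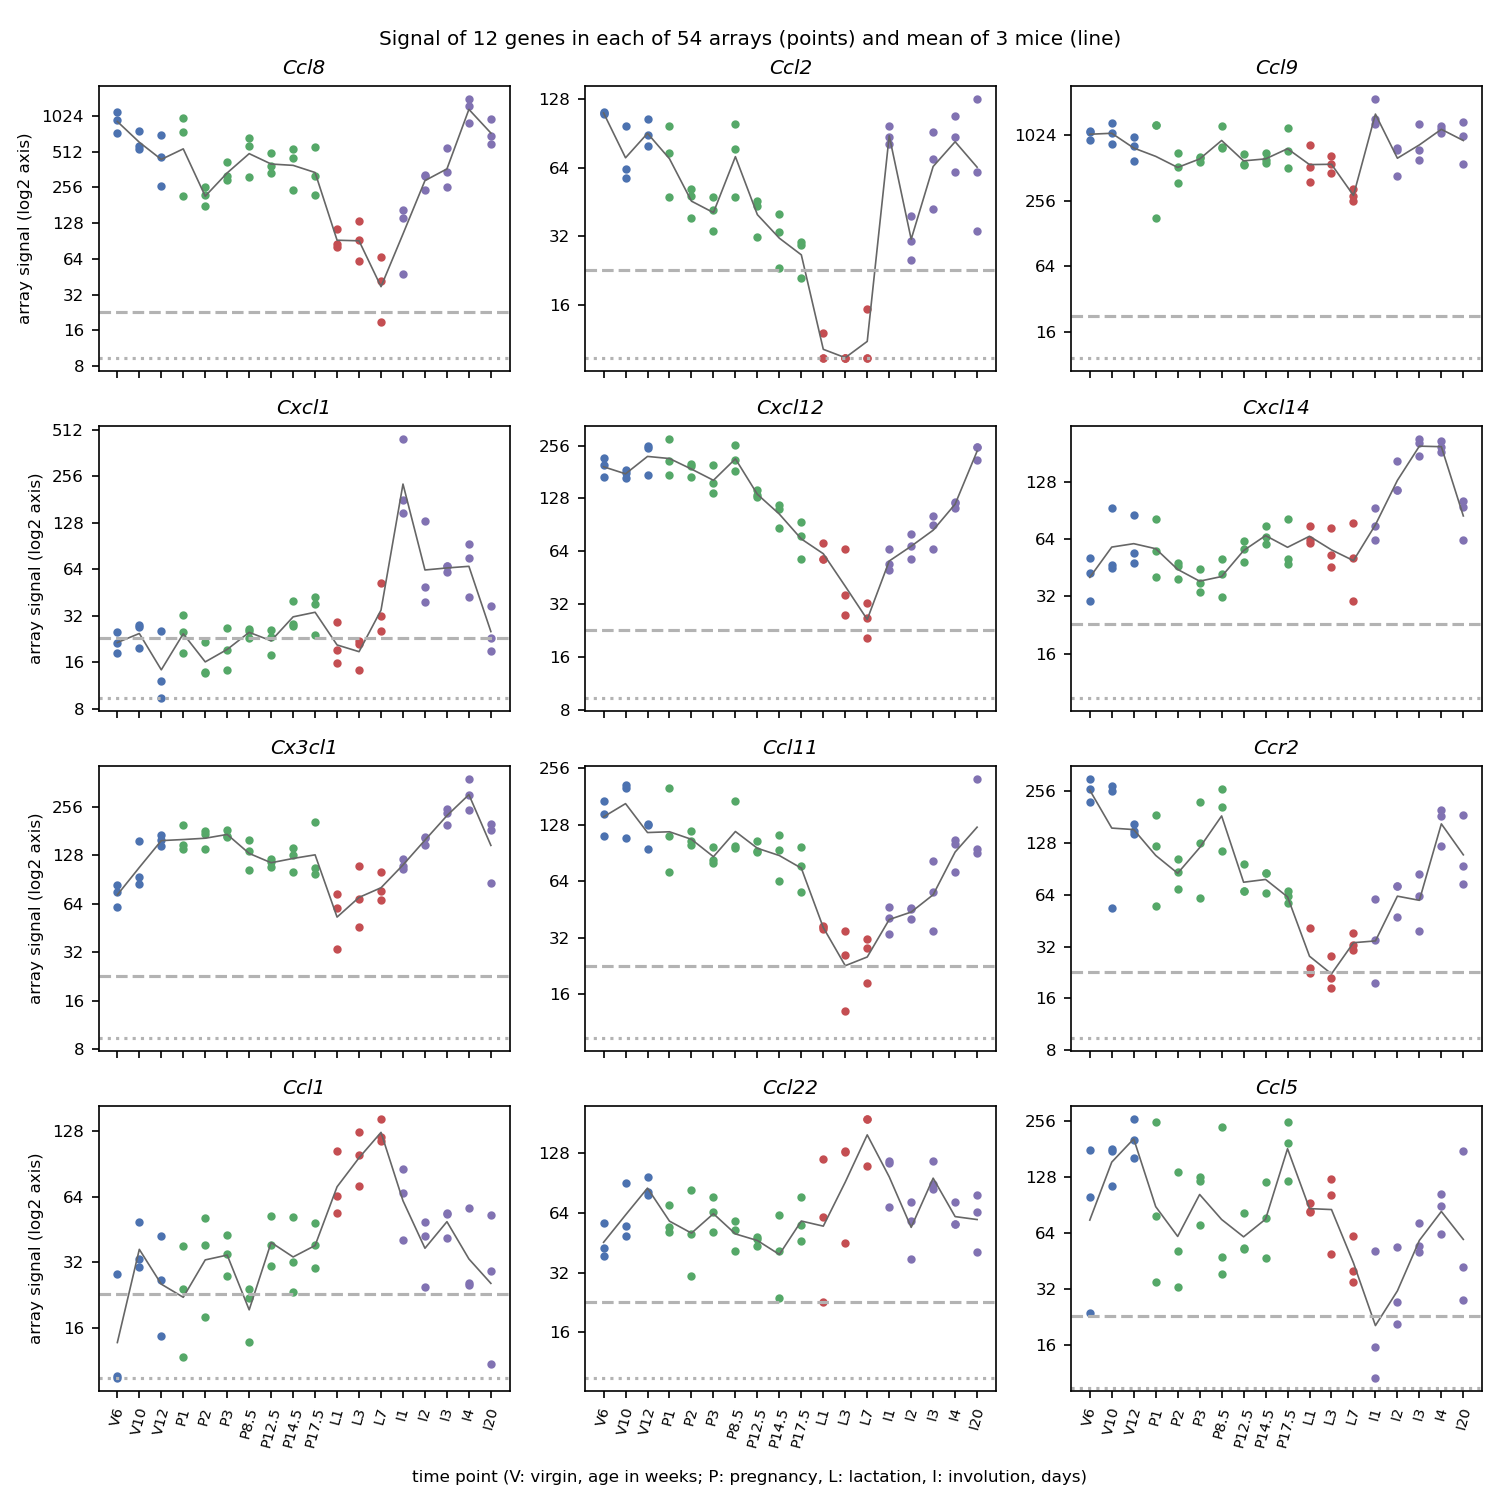
Signal on a log2 axis in each of the 54 arrays (points, 3 mice per time point) and the mean of the 3 mice (line) over 18 time points for 12 genes; signals under the floor are drawn at the dotted line and the dashed line is the filter. Ccl8 runs from a mean of 37.3 at lactation day 7 to 1163 at involution day 4, and Cxcl1 has its highest points, 147.3 to 445.3, at involution day 1.

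Macrophage markers moved with these genes in part. The summed signal of 14 macrophage markers was 2932.8 to 3600.1 at lactation day 7, 8900.0 to 9984.1 at involution day 1 and 14124.7 to 15954.2 at day 4. Most of the sum at day 1 was Cd14 (mean signal 7563), which mammary epithelial cells can also express. At involution day 1 against lactation day 7, 2 of the 13 markers tested rose (Cd68 and Cd14) and C1qa fell. Csf1r, the receptor that defines macrophages, ran from 83.4 to 96.5 at lactation day 7, from 68.7 to 121.7 at involution day 1 and from 519.2 to 870.3 at day 4. At day 4 against lactation day 7, 12 of the 13 rose and 0 fell by limma. At day 1, where Ccl2, Ccl7, Ccl9, Ccr1 and Cxcl1 were up, Cd68 and Cd14 were also up. Csf1r and Adgre1 (15.7 to 36.5, after 14.8 to 20.5) overlapped their lactation day 7 range there. The part of macrophage number in the day 1 levels of the chemokine genes was not tested, nor was its part in the day 4 levels of Ccl8, Ccl12, Ccl3 and Ccr2.

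Cxcl1, a neutrophil attractant and an acute NF-kB target in many cell types, had its highest mean on the first day after weaning. Its signals were 31.6, 52.2 and 25.4 at lactation day 7, and 179.5, 147.3 and 445.3 one day after weaning. By day 2 they were 39.4, 48.8 and 131.2. Every day 1 array exceeded all arrays of every other time point. The log2 difference at day 1 was 2.71 (SE 0.39, 6.55-fold, adjusted p = 7.5e-07), and from day 1 to day 4 it fell by 1.77 (SE 0.39, adjusted p = 0.00074). At day 4, with 42.1, 75.4 and 93.6, it was still 1.92-fold above lactation day 7 (adjusted p = 0.048), a difference that was lost without lactation day 7 mouse A or C or day 4 mouse B or C (adjusted p 0.11 to 0.21) and without the floor (adjusted p = 0.084). A second probe set of Cxcl1 was called at day 1 (log2 difference 2.13, limma adjusted p = 7.1e-05 over all probe sets). It was not called at day 4 against lactation day 7 (0.59, adjusted p = 0.23).

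Smaller rises of Cxcl1 preceded weaning. It read 25.5, 3.9 and 12.1 at virgin week 12 and 28.3, 27.4 and 40 at pregnancy day 14.5 (log2 difference 1.14, SE 0.39, adjusted p = 0.036). That call was lost without virgin mouse B or C or any 1 of the pregnancy arrays (adjusted p 0.062 to 0.2) and under 4 other settings. At lactation day 7 it was 2.44-fold above virgin week 12 with overlapping arrays (adjusted p = 0.006), and the call was lost without mouse B of either time (adjusted p 0.057 and 0.059), with the higher floor (adjusted p = 0.14) and with Arl2bp and Glo1 as covariates (adjusted p = 0.19). The second probe set was called at lactation day 7 (log2 difference 1.09, limma adjusted p = 0.022 over all probe sets). It was not called at pregnancy day 14.5 (0.75, adjusted p = 0.19). The summed signal of 9 neutrophil markers was 405.0 to 474.9 at lactation day 7 and 347.3 to 488.2 at involution day 1. Only 4 of the 9 passed the filter, and 0 of these 4 were called by limma at adjusted p under 0.05. In that comparison 15.2% of all genes rose, so 4 tested markers cannot show whether neutrophil number changed. Of that list Ngp and Mmp8 were at the floor in all 3 arrays of involution day 1. S100a8, the one marker of the list that rose by day 4, had means of 25.3, 38.5 and 68.0 at lactation day 7 and involution days 1 and 4.

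Among ligands of eosinophils and Th2 cells, Ccl11 and Ccl22 moved in opposite directions. Ccl11 (eotaxin), which brings eosinophils to the growing ducts, read 127.9, 129.5 and 95.2 at virgin week 12, 56.5, 77.2 and 97.6 at pregnancy day 17.5, and 35.7, 36.4 and 36.9 at lactation day 1. At lactation day 7 it was at 28.2, 18.3 and 31.5, and at involution day 4 at 72.2, 105.7 and 100.9. The virgin and lactation arrays did not overlap, nor did those of lactation day 7 and involution day 4. It was 4.6-fold lower at lactation day 7 than at virgin week 12 (adjusted p = 9.3e-07) and 3.62-fold higher again by involution day 4 (adjusted p = 2.4e-05). The step from pregnancy day 17.5 to lactation day 1 was a fall of 1.05 (SE 0.34, adjusted p = 0.022) that was lost without pregnancy mouse B or C or lactation mouse B (adjusted p 0.061 to 0.11) and under 3 other settings. Its receptor gene Ccr3 never passed the filter. Of 3 eosinophil and mast cell markers tested, the mast cell proteases Cpa3 and Cma1 fell into lactation and rose by involution day 4, and their part in the Ccl11 level was not tested.

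Ccl22, a ligand of Ccr4 made by dendritic cells and macrophages, had its highest mean at lactation day 7, with arrays at 110.3, 189.4 and 190.1. Its signals were 96.9, 81.3 and 78.8 at virgin week 12, 62.7, 23.8 and 41.2 at pregnancy day 14.5 and 72.2, 56.4 and 56.5 at involution day 4. It was 2.58-fold lower at involution day 4 than at lactation day 7, without overlap (adjusted p = 0.0058). The fall to pregnancy day 14.5 (log2 difference -1.11, SE 0.41) sat on the threshold (adjusted p = 0.05) and was lost under 9 other settings and on leaving out any 1 of the 6 arrays but pregnancy mouse A (adjusted p 0.079 to 0.29).

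Ccl1, a T cell product that acts on Ccr8, also had its highest mean in lactation. It read 14.6, 26.5 and 42.2 at virgin week 12, 115.3, 120.6 and 145.5 at lactation day 7 and 25.6, 25.1 and 56.6 at involution day 4. Lactation day 7 stood clear of both. The log2 difference was 2.32 against virgin week 12 (SE 0.47, adjusted p = 7.3e-05) and -1.93 for involution day 4 against lactation day 7 (SE 0.47, adjusted p = 0.00087). A second probe set of Ccl1 did not show this, with a mean of 9.88 at lactation day 7 and 11.1 at virgin week 12, so the lactation pattern rests on 1 of the gene's 2 probe sets. Over the T cell markers, the summed signal was 301.9 to 379.7 at lactation day 7, below virgin week 12. Next to Ccl22, 3 of the 3 dendritic cell markers tested (of 6 listed) were higher at lactation day 7 than at virgin week 12, with a summed signal of 298.2 to 339.7 after 146.8 to 169.3. Ccl22 itself was not called in that comparison (log2 difference 0.89, SE 0.41, limma adjusted p = 0.064). At involution day 4 against lactation day 7, where Ccl22 was called lower, the markers split, with Itgax higher and Flt3 lower (log2 differences 1.37 and -1.10). The part of these markers in the Ccl22 level was not tested.

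Cxcl12, the stromal ligand of Cxcr4 that keeps progenitors and lymphocytes in tissue, gave the smallest adjusted p of the genes in 2 comparisons. Its signals were 247.7, 173.6 and 254.6 at virgin week 12, 86.7, 111.7 and 117.0 at pregnancy day 14.5 and 20.6, 26.8 and 32.7 at lactation day 7. After weaning they were 65.8, 50.4 and 54.1 at day 1, 121.7, 113.6 and 121.3 at day 4 and 251.8, 211.8 and 252.0 at day 20. Each of these groups stood clear of the one named before it, and the arrays of involution day 20 lay within the range of virgin week 12.

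Cxcl12 had fallen by 1.09 on the log2 scale at pregnancy day 14.5 (SE 0.23, adjusted p = 0.00068), and the fall reached 8.46-fold at lactation day 7 (adjusted p = 9.3e-15). The gain was 1.10 at involution day 1 (SE 0.23, adjusted p = 0.00027) and 2.18 at day 4 (SE 0.23, adjusted p = 2.5e-10), both against lactation day 7. The other probe sets of the gene also had low means in lactation, 29.5 and 12.0 at day 7 after 107.9 and 69.98 at virgin week 12. At pregnancy day 14.5 they disagreed, with log2 differences of -0.15 and -1.42 from virgin week 12 (adjusted p = 0.78 and 0.00087 over all probe sets). They also differed in the return: at involution day 4 the means were 178.1 and 20.7, and at day 1 neither was called when all probe sets were tested together (adjusted p = 0.51 and 0.11). Fibroblast markers ran the same way from virgin week 12 to lactation day 7 and involution day 4. The summed signal of 6 genes was 12398.1 to 13998.5 at virgin week 12. On lactation day 7 it was 1521.4 to 2168.5 and on involution day 4 it was 7275.9 to 10353.5, and their part in the Cxcl12 level was not tested. All 6 fell to lactation day 7 and all 6 rose by involution day 4, where 28.8% and 23.9% of all genes did. They parted from Cxcl12 in some other comparisons. At pregnancy day 14.5 against virgin week 12, 0 of the 6 were called. At lactation day 1 against pregnancy day 17.5, 5 of the 6 fell, and Cxcl12 was not called (log2 difference -0.28, limma adjusted p = 0.4). From virgin week 6 to week 12, 4 of the 6 fell, and Cxcl12 was not called (log2 difference 0.2, limma adjusted p = 0.54).

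**Figure D3:**
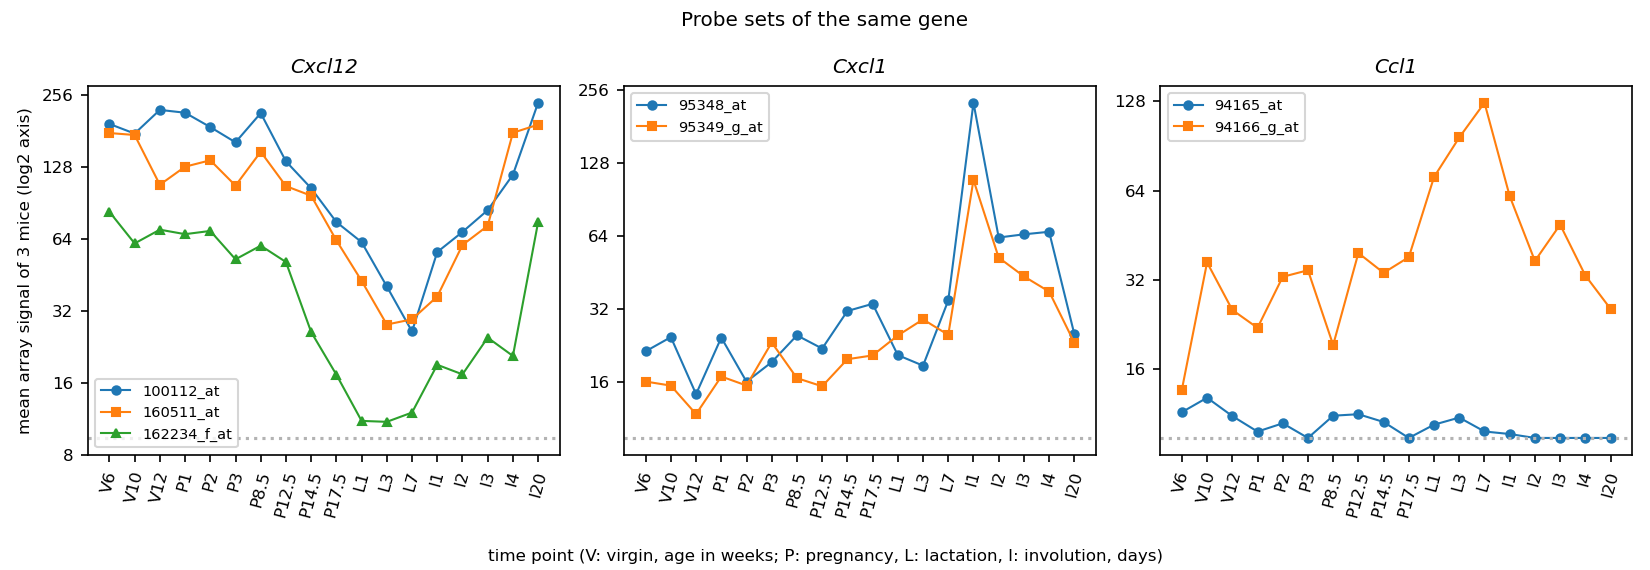
Mean signal of 3 mice on a log2 axis at 18 time points for each probe set of Cxcl12, Cxcl1 and Ccl1, with the floor dotted. The 3 Cxcl12 probe sets all dip in lactation, both Cxcl1 probe sets peak at involution day 1 (means 227.5 and 109.2), and 1 of the 2 Ccl1 probe sets stays near the floor throughout.

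Cx3cl1 (fractalkine), a membrane-bound ligand of Cx3cr1, was lowest on the first day of lactation and highest on the fourth day of involution. It read 98.4, 106.2 and 205.2 at pregnancy day 17.5 and 73.3, 33.6 and 60.2 at lactation day 1 (a fall of 1.28, SE 0.29, adjusted p = 0.00097), a call that was lost when the 6 arrays compared were fitted alone (adjusted p = 0.083). At involution days 1 and 4 it read 109.8, 104.8 and 120.7, then 245.2, 381.3 and 304.4. The day 4 arrays were above all others of the gene apart from mouse A of day 3 (247.7), which lay within their range. The log2 difference to lactation day 7 was 1.92 (SE 0.29, adjusted p = 6e-07). In virgin mice it rose 2.17-fold from week 6 to week 12 (adjusted p = 0.0038). A second, dim probe set of Cx3cl1 did not pass the filter and had means of 9.5 at lactation day 7 and 10.1 at involution day 4.

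Cxcl14, an epithelial and stromal chemokine that attracts monocytes and dendritic cells, changed after weaning only among the comparisons made. Its signals were 30.4, 50.9 and 77.5 at lactation day 7 and 92.8, 74.7 and 63.5 at involution day 1, which overlap. They were 116.3, 164.2 and 115.4 at day 2, 203.6, 214.4 and 174.4 at day 3, and 182.7, 195.6 and 208.9 at day 4. Day 4 was 3.96-fold above lactation day 7 (adjusted p = 4.3e-07) and 2.57-fold above day 1 (adjusted p = 0.00047). By day 20, at 63.4, 100.8 and 94.8, the mean was 84.6, with 60.5 at virgin week 12. On day 3 the arrays of Cxcl14 lay in or near the range of day 4, while those of Cxcl1 lay far below its day 1 range.

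Cxcl9, an interferon-induced ligand of Cxcr3, fell in the virgin gland and in lactation. It read 102.8, 104.4 and 180.2 at week 6 and 45.2, 52.6 and 55.6 at week 12, a fall of 1.29 on the log2 scale (SE 0.38, adjusted p = 0.0091) that was lost without week 6 mouse C (adjusted p = 0.07). At lactation day 7 it read 24.2, 18.6 and 30.8, 2.12-fold below virgin week 12 (adjusted p = 0.015), a call that was lost without mouse B of day 7 (adjusted p = 0.074) and with Arl2bp and Glo1 as covariates (adjusted p = 0.36). From involution day 1 (20.8, 5.2 and 24.5) to day 4 (43.0, 33.0 and 38.4) it rose by 1.17 (SE 0.38, adjusted p = 0.019), which was lost without day 1 mouse B (adjusted p = 0.2) or day 4 mouse A (adjusted p = 0.071) and with the higher floor (adjusted p = 0.14). Its relative Cxcl10 was dim, with no array above 15.0.

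Cxcl13, the B cell attractant of lymphoid follicles, read 59.1, 49.0 and 33.3 at virgin week 12 and 10.6, 6.1 and 21.7 at pregnancy day 14.5. The groups did not overlap (log2 difference -1.83, SE 0.62, adjusted p = 0.034). The call was lost without virgin mouse A or B or pregnancy mouse A or B (adjusted p 0.088 to 0.13) and under 6 other settings, such as no floor (adjusted p = 0.19). Lactation day 7, at 21.3, 7.2 and 23.3, was also lower than virgin week 12 (adjusted p = 0.046), and that call was lost without virgin mouse A or B or lactation mouse A or B (adjusted p 0.052 to 0.22) and under 4 other settings. Lymphocyte markers moved with Cxcl13 between virgin week 12 and pregnancy day 14.5, where 9.52% of all genes fell. Of the 7 T cell markers tested, 4 fell (Cd3e, Cd5, Cd4 and Cd2), and of the 7 B and plasma cell markers 3 fell (Cd79b, Cd22 and Blk). The summed T cell signal was 934.9 to 1126.4 and then 560.0 to 732.4, and the B and plasma cell sum was 496.7 to 643.9 and then 223.4 to 293.9. Of 4 markers of lymph node stroma and lymphatic endothelium tested, 0 were called there by limma. A probe set shared by Ccl21a, Ccl21b, Ccl21c and other symbols was lower there (log2 difference -3.18, SE 1.08, adjusted p = 0.033). Its signals spread widely between mice, from 6.0 to 373.5 at pregnancy day 1. A probe set shared by Ccl19 and other symbols was also lower (log2 difference -1.77, SE 0.44, adjusted p = 0.0036). At lactation day 7 against virgin week 12, the B and plasma cell markers split, with Cd79b lower and Jchain higher. Their summed signal at lactation day 7 was 647.7 to 817.6. Of the 7 T cell markers, 4 fell in that comparison, where 28.8% of all genes fell. The part of lymphocytes or lymph node tissue in the Cxcl13 level was not tested.

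Xcl1, a ligand made by activated T and natural killer cells, had signals of 15.1, 18.1 and 5.7 at virgin week 12 and 32.5, 31.0 and 35.1 at pregnancy day 14.5 (log2 difference 1.26, SE 0.45, adjusted p = 0.043). The call was lost on leaving out any 1 array but virgin mouse B (adjusted p 0.077 to 0.18) and under 5 other settings, and Xcl1 did not pass the F test over all time points. Beside it, Gzma and Gzmb rose among the 3 natural killer markers tested, and their part in the Xcl1 level was not tested. Its receptor gene Xcr1, which marks cross-presenting dendritic cells, read 11.9, 8.9 and 15.4 at virgin week 6 and 17.8, 50.1 and 42.0 at week 12 (log2 difference 1.48, SE 0.40, adjusted p = 0.0051), a call lost with the higher floor (adjusted p = 0.084). Its means were 47.8, 56.2 and 58.3 at lactation days 1, 3 and 7, the day 7 mean not differing from that of virgin week 12 at the threshold (adjusted p = 0.086).

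Of the receptors, Ccr1 and Ccr2 followed different times after weaning. Ccr1, the receptor of Ccl3, Ccl6 and Ccl9 on monocytes and neutrophils, read 13.4, 3.2 and 7.5 at lactation day 7, 25.3, 31.1 and 30.1 at involution day 1 and 64.7, 30.3 and 43.1 at day 4. No array of day 1 overlapped with lactation day 7 (log2 difference 1.44, SE 0.37, adjusted p = 0.0025), although the higher floor ended that call (adjusted p = 0.21). At day 4 it was above lactation day 7 by 2.05 (SE 0.37, adjusted p = 1.3e-05). In lactation it had fallen by 1.69 from virgin week 12 (SE 0.37, adjusted p = 0.00017), where the arrays read 35.0, 32.3 and 34.9, and that call was lost with Arl2bp and Glo1 as covariates (adjusted p = 0.51). All 3 sizes depend on the floor, since 2 of the 3 arrays of lactation day 7 were under it.

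Ccr2, which brings monocytes out of the blood, read 150.3, 166.0 and 145.3 at virgin week 12 and 30.4, 38.3 and 32.8 at lactation day 7. On involution day 1 it still read 60.2, 19.6 and 34.8, and by day 4 it was at 200.5, 184.6 and 123.2. The day 1 arrays spanned those of lactation day 7, and the day 4 arrays lay above both. The log2 difference from day 1 to day 4 was 2.27 (SE 0.45, 4.81-fold, adjusted p = 0.00019), and from lactation day 7 to involution day 4 it was 2.30 (SE 0.45, adjusted p = 5.7e-05). Ccr2 was called higher at day 4 and not at day 1, as was Csf1r, whereas its ligand gene Ccl2 was called at both. Whether the time of the rise differs between the 2 genes was not tested. From virgin week 12 to lactation day 7 Ccr2 was 4.56-fold lower (adjusted p = 8.8e-05). Ccl2 fell by 3.03 on the log2 scale, a size that depends on the floor (adjusted p = 3.1e-10). With Arl2bp and Glo1 as covariates the Ccr2 fall was no longer called (adjusted p = 0.54).

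Ccr9, the receptor of Ccl25 on gut-homing lymphocytes and plasmacytoid dendritic cells, had its highest mean at lactation day 7. Its signals were 5.0, 29.6 and 2.3 at virgin week 12, 39.4, 49.4 and 33.9 at lactation day 7 and 2.4, 16.5 and 3.0 at involution day 4. Lactation day 7 did not overlap with either (log2 differences 1.55 and -1.83, SE 0.41 for both, adjusted p = 0.0014 and 0.00028). Both sizes depend on the floor, since 2 of the 3 arrays of virgin week 12 and of involution day 4 were under it, and the first call was lost with Arl2bp and Glo1 as covariates (adjusted p = 0.17). Its ligand gene Ccl25 never passed the filter.

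Cxcr4, the receptor of Cxcl12, was near the floor in lactation. Signals were 29.4, 25.3 and 18.1 at virgin week 12, 5.7, 8.2 and 20.7 at lactation day 7, 1.3, 4.7 and 1.7 at involution day 1 and 25.2, 18.7 and 28.2 at day 4. From involution day 1, with all arrays under the floor, to day 4 the rise was at least 2.52-fold (adjusted p = 0.0046). The differences of virgin week 12 and involution day 4 from lactation day 7 overlap in mouse C of lactation day 7 and were each lost on leaving out any of 4 arrays (adjusted p 0.059 to 0.11, and 0.068 to 0.12), namely mice A and B of lactation day 7, with virgin mice A and B or involution mice A and C. With the higher floor all 3 Cxcr4 calls were lost (adjusted p 0.45 to 0.61).

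Cx3cr1, the fractalkine receptor of macrophages and patrolling monocytes, read 40.3, 24.1 and 19.4 at virgin week 6 and 68.8, 49.9 and 74.8 at week 12 (log2 difference 1.26, SE 0.46, adjusted p = 0.032). It did not vary over all time points by the F test, and its means at lactation day 7 and involution day 4 were 74.8 and 67.6. Cxcr3, the receptor of Cxcl9 on T cells, varied over the course by the F test but was called in none of the comparisons, with means of 50.6 at virgin week 12, 34.2 at lactation day 7 and 30.4 at involution day 4.

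The changes within the virgin gland need the RNA measure beside them. Ccl6 rose from 75.4, 24.8 and 40.4 at week 6 to 100.1, 121.4 and 92.0 at week 12 (adjusted p = 0.023), as did Cx3cl1, Cx3cr1 and Xcr1. The mean beta-actin 3'/5' ratio was 3.75 at week 6 and 1.99 at week 12. With that ratio as a covariate, 0 of the 5 calls were kept by limma (adjusted p 0.064 to 0.34), and 344 in place of 2278 of all genes were called. Ccl6 was also lost without week 6 mouse B or C or week 12 mouse A or B (adjusted p 0.05 to 0.14), and Cx3cr1 without week 6 mouse B or C or week 12 mouse A or C (adjusted p 0.076 to 0.14).

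**Figure D4:**
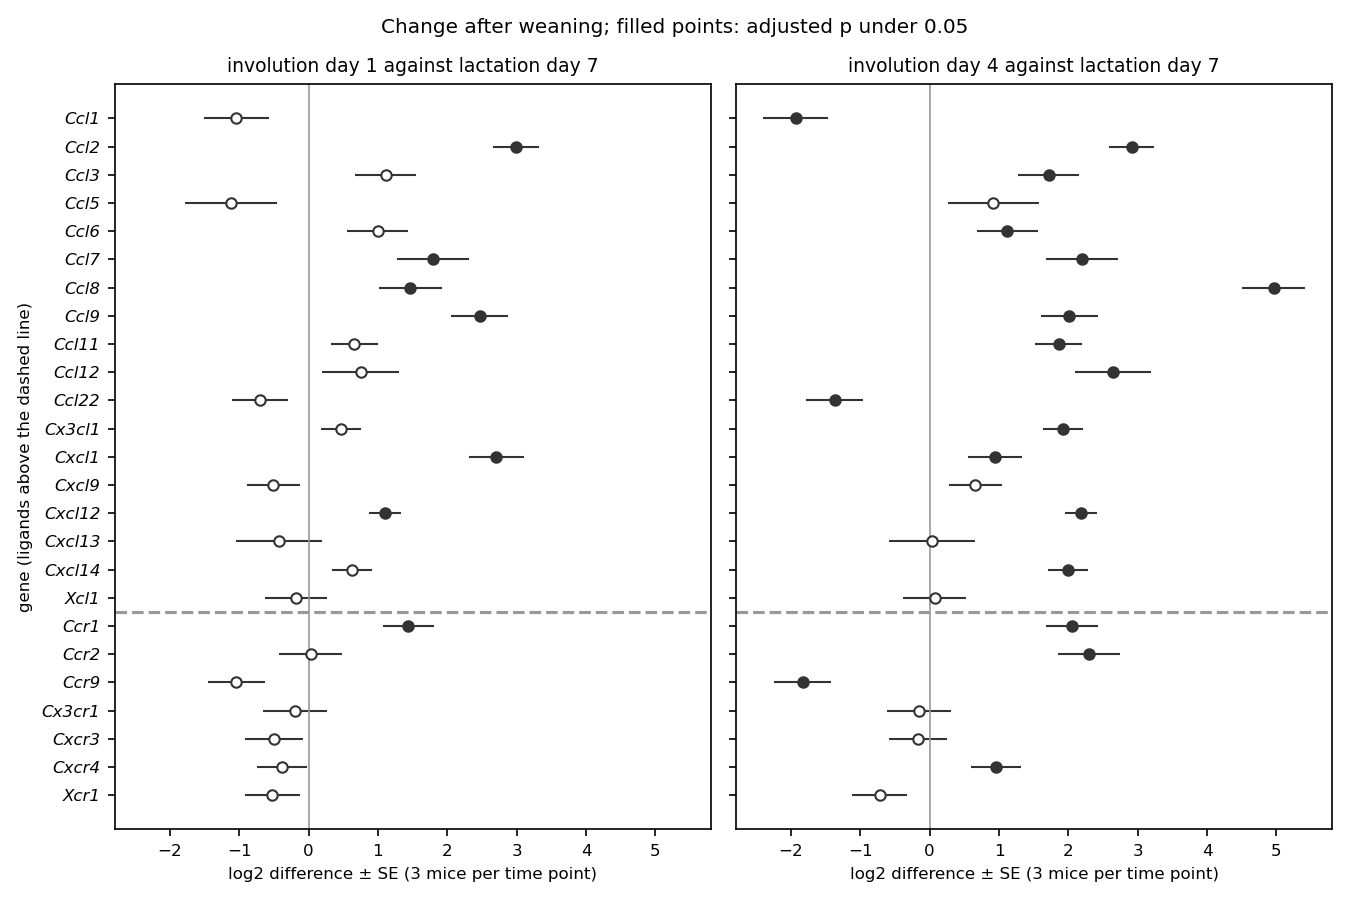
Log2 difference from lactation day 7 with its standard error at involution day 1 (left) and day 4 (right) for the 25 tested genes, ligands above the dashed line, with filled points for an adjusted p under 0.05 (3 mice per time point). On day 1 the filled points are Ccl2, Ccl7, Ccl8, Ccl9, Cxcl1, Cxcl12 and Ccr1, and on day 4 Ccl8 lies farthest to the right, at 4.96.

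Neighbouring genes did not all share a course. In RefSeq, Ccl2, Ccl7, Ccl11, Ccl12, Ccl8 and Ccl1 follow one another on chromosome 11 with no other listed gene between them. The first 5 of these had their lowest mean in lactation and Ccl1 its highest. In the run Ccl5, Ccl9, Ccl6, Ccl3 and Ccl4 on the same chromosome, Ccl9 had its lowest mean in lactation, Ccl5 in involution, Ccl3 in pregnancy and Ccl6 in virgin glands. Ccl22 and Cx3cl1 lie beside each other on chromosome 8, and from lactation day 7 to involution day 4 Ccl22 fell while Cx3cl1 rose. On chromosome 9, Xcr1 and Ccr1 are neighbours, with their highest means in lactation and in involution. Near-identical sequence in such clusters can let one probe set detect a neighbour's RNA, and this was not tested.

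Other genes of the chemokine pathway, taken from a list of 70, were on the array for 57 and were tested for 45. At lactation day 7 against virgin week 12, 3 of the 45 rose and 22 fell, where 23.8% and 28.8% of all genes did. By involution day 4, 22 rose and 3 fell against lactation day 7, where 23.9% and 21.8% of all genes did. The sublists that follow are read against the same shares. The adhesion genes that let leukocytes leave blood vessels were among them, with 6 of 8 tested falling into lactation and 6 of 8 rising by involution day 4. Vcam1, the endothelial ligand of the integrin VLA-4, had a mean of 45.0 at virgin week 12, was at the floor in all arrays of lactation day 7, and had a mean of 111.5 at involution day 4 (adjusted p = 1e-08). Itgb2, the shared chain of leukocyte integrins, went from 51.7 to 19.0 and then 109.5 (adjusted p = 3.9e-07 for the rise). At involution day 1, 1 of these 8 adhesion genes was called, a share near the 15.2% of all genes that rose there. It was Icam1, with a mean of 16.1 after 9.82 (adjusted p = 0.049).

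Of the genes that induce chemokines, 4 of 12 tested fell into lactation, a share near the 28.8% of all genes, and 5 of 12 rose by involution day 4, where 23.9% of all genes rose. Tnfrsf1a, the main receptor of tumour necrosis factor, had means of 260.9, 55.2, 167.1 and 368.5 at virgin week 12, lactation day 7 and involution days 1 and 4 (adjusted p = 0.00019 at day 1). Rela, the activating subunit of NF-kB, had means of 306.6 at lactation day 7 and 598.1 at involution day 1 (adjusted p = 0.0066). Nfkbia, the NF-kB inhibitor that is itself an NF-kB target, was lower at day 1, at 174.3 after 441.5 (adjusted p = 4.4e-05). Tnf rose by pregnancy day 14.5 from 9.6 to 37.5 (adjusted p = 0.00024).

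Genes that shape or scavenge chemokines moved both ways after weaning. Of 8 ligand processing and chemokine-like genes tested, 2 rose and 3 fell at involution day 1 against lactation day 7. By day 4, 4 rose and 2 fell. Of 4 atypical receptors tested, 1 rose and 0 fell on each of these days. Of all genes, 15.2% rose and 11.7% fell at day 1. Ackr3, a scavenger receptor of Cxcl12, had a mean of 35.7 at lactation day 7 and 92.5 at involution day 1 (adjusted p = 0.018). Rarres2 (chemerin), a chemokine-like attractant of macrophages, had means of 1110, 125.4 and 702.0 at virgin week 12, lactation day 7 and involution day 4 (adjusted p = 2.7e-09 for the rise). Adam10, one of the proteases that release Cx3cl1 from the membrane, had means of 51.0 and 114.7 at lactation day 7 and involution day 1 (adjusted p = 0.00017). In signalling downstream of the receptors, 6 of 13 genes tested fell and 1 rose into lactation, and 6 rose and 1 fell by involution day 4. Among those that fell and then rose was Gnai2, the main Gi protein of leukocytes, with means of 2454, 1007 and 2535 at virgin week 12, lactation day 7 and involution day 4.

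**Figure D5:**
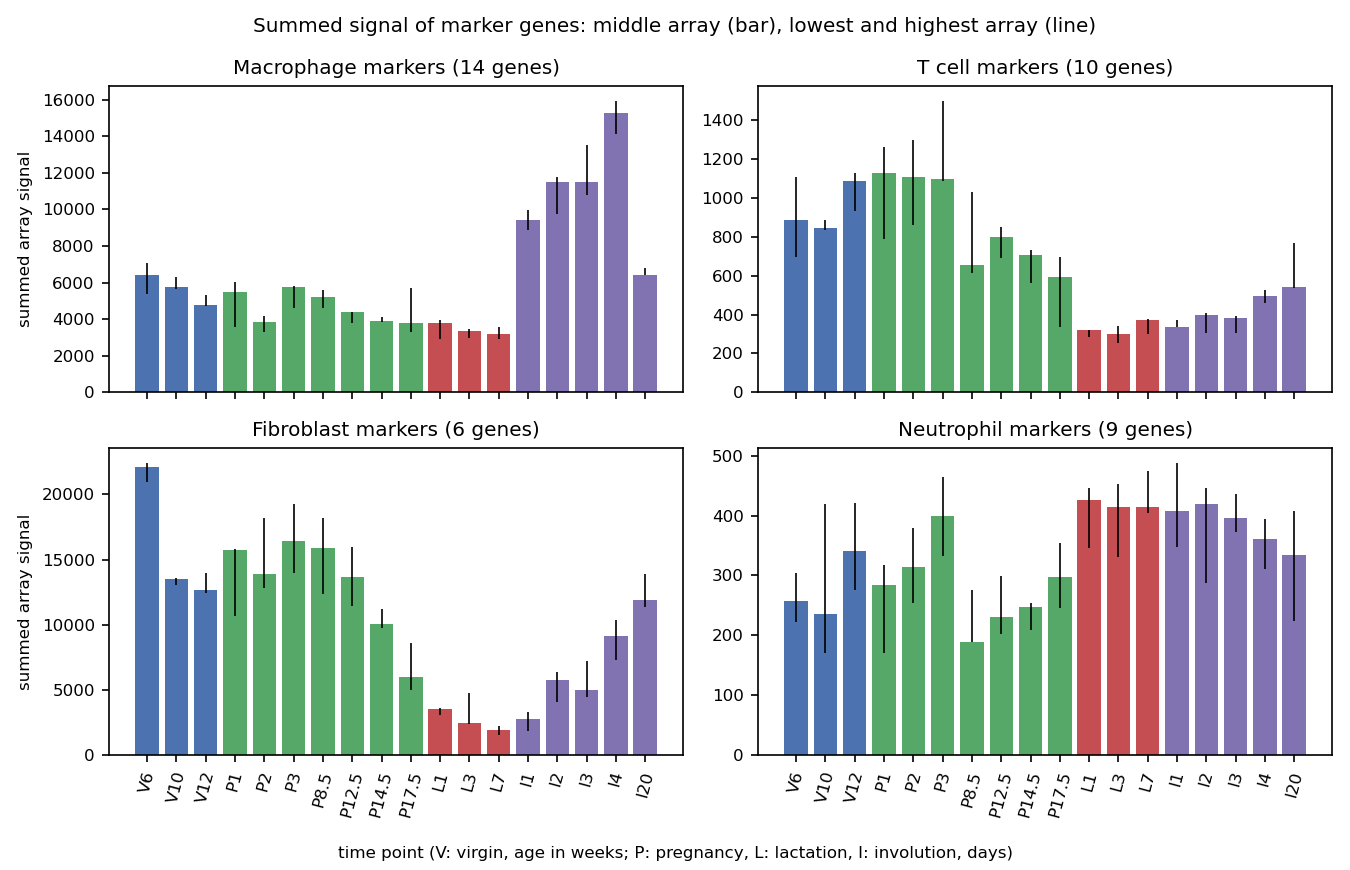
Summed signal of marker genes of macrophages (14 genes), T cells (10), fibroblasts (6) and neutrophils (9) at each time point; the bar is the middle of 3 arrays and the line runs from the lowest to the highest. Macrophage markers climb from 2932.8 to 3600.1 at lactation day 7 to 14124.7 to 15954.2 at involution day 4, fibroblast markers are lowest in lactation, and neutrophil markers at involution day 1 overlap those of lactation day 7.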

How the data were processed

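The 54 arrays hold total RNA of 1 gland each. The authors deposited a MAS5 signal intensity per probe set, per the submitters' processing notes; its version was not given in the sources used here. Of 12488 probe sets, 66 were controls and 10833 carried 1 gene symbol; 396 with several and 1193 with none were not named. From the deposited intensity values, signals under 9.4 (25th percentile) were set to 9.4 and log2 was taken. Of all probe sets but the controls, 8640 stood above 22.8 (40th percentile) in all 3 arrays of a time point. Each gene was represented by its kept 1-symbol probe set with the highest mean. Kept probe sets with several symbols or none stayed separate, and together these made up the 7311 genes of the text. limma 3.58.1 in R 4.3.3 was fitted over all 54 arrays and 18 groups (36 residual degrees of freedom, intensity trend), with Benjamini-Hochberg adjustment over all 7311 genes and calls at an adjusted p under 0.05. The scripts were tested on simulated data. Figures were drawn with matplotlib 3.10.9, and tables were made with numpy 2.4.6 and pandas 2.3.3 under Python 3.11.15.

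Each of the 39 genes is named, and each of them called in at least 1 comparison is described by its arrays. Chemokine genes that share their probe sets with other symbols, such as Ccl19, Ccl21a and Ccl27a, are not among the 39. The genes, marker lists and pathway lists were chosen with earlier results of these data known. Groups came from the titles of the samples. The p-values measure the spread between mice, and 3 arrays per time point limit the precision. Alternatives were other floors, filters, scalings, array weights, covariates, the replicate letter as a block, fits on the compared arrays only and leaving out each array.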

Additional observations from a re-analysis of the deposited data

How the results depend on the processing

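For virgin week 12 against week 6 (5 called), array weights gave 9, the beta-actin ratio as a covariate 0, and leaving out an array 3 to 5. For pregnancy day 14.5 against virgin week 12 (6 called), no floor and no filter each gave 3, array weights 11, Arl2bp and Glo1 as covariates 1, the 6 compared arrays alone 11, and leaving out an array 2 to 3. Arl2bp and Glo1 are genes that an earlier analysis found to vary between arrays within time points. For lactation day 1 against pregnancy day 17.5 (4 called), the 6 arrays alone gave 2 and leaving out an array 3 to 6. For lactation day 7 against virgin week 12 (18 called), the Arl2bp and Glo1 covariates gave 6 and leaving out an array 12 to 18. Leaving out an array gave 6 to 10 for involution day 1 and 15 to 17 for day 4 against lactation day 7, 9 to 12 between these days, 0 to 1 for involution day 20 (3 with array weights), and 19 to 22 for the F test. The log2 difference of Ccl6 between lactation day 7 and virgin week 12 became 1.33 with Arl2bp and Glo1 as covariates. The cause of these moves was not tested.

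Of 69 single-gene calls, 34 were kept under every setting run, among them 15 of 18 at involution day 4 against lactation day 7 and 0 of 5 for virgin week 12 against week 6. The labels do not say whether the replicate letters pair mice across time points. Arrays of the same letter had a median correlation of 0.014 in their deviations (range -0.51 to 0.43), and those of other letters had -0.007. A median near 0 cannot show whether some time points shared a pairing or batch. With the letter as a replicate block, the counts were 5, 5, 4, 18, 8, 17, 11 and 0 in the order of the text, 22 by the F test, and 2 single calls were lost (Ccl22 at pregnancy day 14.5, adjusted p = 0.054 in limma, and Cxcl1 at involution day 4 against lactation day 7, 0.052). Signals near the floor limit Ccl7, Ccl12, Cxcr4 and Ccr1: 15 calls were lost with the floor at the 40th percentile.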
